A study of Mus musculus with 32 samples.

Results

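Messenger RNA of 8 genes of the reproductive axis was followed in the mouse hypothalamus: the oestrogen receptors Esr1 and Esr2, the progesterone receptor Pgr, aromatase (Cyp19a1), the oestrogen-induced gene Greb1, kisspeptin (Kiss1), its receptor Kiss1r, and gonadotropin-releasing hormone (Gnrh1). The genes were chosen by symbol, through the Ensembl identifiers of a GRCm38 annotation, and all 8 were found among the 55401 identifiers of the series. Total RNA of the hypothalamus was sequenced by a stranded paired-end protocol in 32 male C57BL/6NTac mice, each labelled as a separate biological replicate. Hemizygous Gpr101 knockouts (Gpr101 is an X-linked orphan receptor gene) and wild-type littermates were kept on control diet (KO_CD, 8 mice; WT_CD, 7 mice). Knockouts and wild types were also given a diet with 60% of its energy as fat from the age of 7 weeks (KO_HFD, 9 mice; WT_HFD, 8 mice). All mice had standard chow before that age and were 149 or 150 days old when killed. The knockout was of the whole animal, so hypothalamic and peripheral losses of Gpr101 cannot be told apart, and only males were sampled.

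Neurons that make gonadotropin-releasing hormone lie scattered in the preoptic area and septum and drive the pituitary and, through it, the gonads. Kisspeptin acts on them through Kiss1r and is made by a cell group near the third ventricle and by arcuate neurons that also make neurokinin B (Tac2) and dynorphin (Pdyn). Sex steroids feed back mainly on cells that carry their receptors, and aromatase makes oestrogen from androgen within the brain. Pgr and Greb1 are well-known genes that oestrogen raises through Esr1, Pgr also in the hypothalamus.

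Kiss1 and Gnrh1 code for precursors that are cut to short peptides, and the bases that code for each peptide were looked for in other genes. Reads can fall on any exon base, so this search covers only a small part of each transcript. The coding stretches are given from GENCODE vM21 transcripts in the sense direction, on GRCm38 chromosome 1 for Kiss1 and chromosome 14 for Gnrh1, both on the plus strand. Capitals mark the 30 bases that code for the decapeptide:
Kiss1: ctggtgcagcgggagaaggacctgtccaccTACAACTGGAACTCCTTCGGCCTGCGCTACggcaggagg
Gnrh1: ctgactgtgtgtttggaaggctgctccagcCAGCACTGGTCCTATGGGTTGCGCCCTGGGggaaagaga
Each gene has 2 coding transcripts that hold the stretch. These are codons 132 to 141 of 152 or 106 to 115 of 126 in Kiss1, and codons 22 to 31 of 90 or 28 to 37 of 96 in Gnrh1. Among the transcripts of 55450 genes, the Kiss1 stretch was held by 3 genes, Kiss1 and the 2 read-through genes named Gm28040, and that of Gnrh1 by Gnrh1 alone.

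Reads on genes ranged from 25.3 to 34.2 M per library. Gpr101 was read at a normalized count of 2839 ± 104 in WT_CD and 2855 ± 102 in WT_HFD (SD), at 0 reads in KO_CD and at 1 read in all KO_HFD libraries together, so the genotypes matched their labels. Of 10 markers of hypothalamic nuclei, none was at 0 in any library. Of 9 pituitary markers, the gonadotropin gene Lhb was at 0 in all 32 libraries, but the other 8 had reads. Tshb, Tbx19 and Pitx1 had reads in every library, and the highest normalized counts were 303 for Gh, 135 for Cga, 90.5 for Prl and 31.8 for Fshb. In whole tissue, fewer cells of a type and less RNA per cell cannot be told apart.

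None of the 7 members that could be tested passed a Benjamini-Hochberg threshold of 0.05 over 19928 genes in any of 7 comparisons, and Kiss1 was below the filter on low counts. The background was nearly as empty, because few genes were called at all. Genes called made up 0.00502% for genotype on control diet, 0.00502% for genotype on high-fat diet and 0.00502% for genotype averaged over diets, which in each case was Gpr101 alone. They made up 0.0251% for diet in wild type, 0.0351% for diet in knockout, 0.336% for diet with the genotypes averaged and 0% for the interaction of genotype and diet. Without single libraries the genes called ranged from 1 to 7 for diet in wild type, from 3 to 10 for diet in knockout and from 41 to 87 for diet with the genotypes averaged, where 5, 7 and 67 were called with all mice. At an unadjusted limma p under 0.05 there were 676 genes in that interaction, 1 of them a member. In the other comparisons such members numbered 0 or 1, except 2 for diet in wild type, against 821 to 2208 genes. The median log2 fold change of the tested members lay between -0.062 and 0.016 for the 6 other comparisons and was 0.15 for the interaction, against medians of all genes between -0.0021 and -0.00014.

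**Figure D1:**
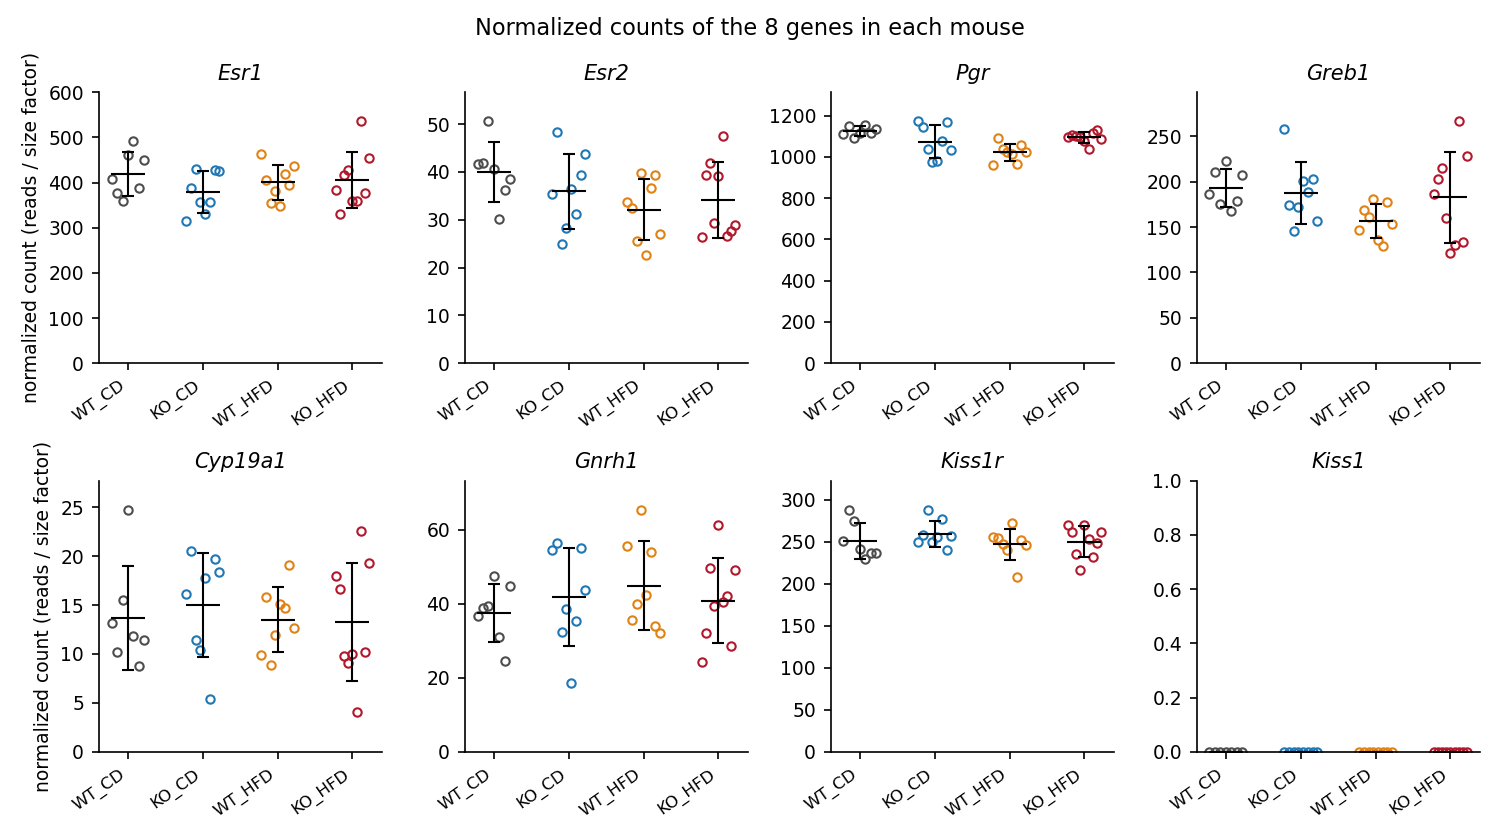
Normalized counts (reads divided by the library's size factor, linear axes from 0) of the 8 genes in each mouse, by genotype and diet; open circles are mice, and bars are the mean and SD of 7 to 9 mice. Most groups overlap widely, Pgr has the smallest relative spread, and Kiss1 is at 0 in every mouse.

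Levels of different genes were compared per exon length, as reads per kilobase of exon and M reads on genes (RPKM, mean ± SD of 32 mice). Pgr was the most abundant, at 4.51 ± 0.250, and exceeded the next gene in every mouse. Kiss1r at 2.33 ± 0.168 and Gnrh1 at 2.30 ± 0.623 could not be ordered, since Kiss1r was the higher in only 18 of 32 mice. Esr1 followed at 1.05 ± 0.132, then Greb1 at 0.669 ± 0.133 and Esr2 at 0.375 ± 0.0783, each step holding in at least 31 mice. Cyp19a1 was lowest of the genes with reads, at 0.109 ± 0.0390, and Kiss1 was listed at 0.

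Esr1 (ENSMUSG00000019768, chromosome 10, 4611593 to 5005614, plus strand), the main oestrogen receptor of the hypothalamus, had normalized counts from 359.7 to 492 in WT_CD (median 407) and from 315 to 429 in KO_CD (median 373). They ran from 349 to 463 in WT_HFD (median 400.1) and from 331 to 536 in KO_HFD (median 383). All groups overlapped, and the highest mouse of the series was a knockout on high-fat diet. The mean was lower in knockouts on control diet (379 ± 45.9 against 419 ± 49.0), by a log2 fold change of -0.15 (SE 0.086, 95% interval -0.32 to 0.030, limma adjusted p = 1.00). On high-fat diet the same contrast was 0.0084 (SE 0.081), and the diet contrasts were -0.062 (SE 0.086) in wild type and 0.091 (SE 0.081) in knockout.

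Esr2 (ENSMUSG00000021055, chromosome 12, 76120419 to 76177259, minus strand), the second oestrogen receptor, was read at 30.2 to 50.6 normalized counts in WT_CD (median 40.6) and 25 to 48.3 in KO_CD (median 35.9). It was read at 22.7 to 39.7 in WT_HFD (median 33.1) and 26.4 to 47.6 in KO_HFD (median 29.4). Every WT_HFD mouse lay below the WT_CD median, but the groups overlapped. The WT_HFD mean of 32.1 ± 6.44 against 39.9 ± 6.24 gave a log2 fold change of -0.32 (SE 0.16, 95% interval -0.64 to 0.0030). This gave a limma adjusted p of 0.679 and a two-sided exact permutation p of 0.0389 for this gene alone. In knockout, diet gave -0.076 (SE 0.15), and genotype gave -0.16 (SE 0.16) on control diet and 0.078 (SE 0.15) on high-fat diet.

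Pgr (ENSMUSG00000031870, chromosome 9, 8899833 to 8968611, plus strand), a steroid receptor and itself an oestrogen-induced gene, had the pattern that stood out most. Normalized counts were 1091 to 1153 in WT_CD (median 1118) and 961 to 1089.7 in WT_HFD (median 1024), so these groups did not overlap, though the highest WT_HFD mouse was just under the lowest WT_CD mouse. Knockouts ran from 978 to 1174 on control diet (median 1059.55) and from 1037 to 1129.9 on high-fat diet (median 1098). The knockout groups overlapped each other, with KO_CD reaching both below and above KO_HFD.

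For diet in wild type, mean Pgr was 1022 ± 42.9 against 1125 ± 22.4, a log2 fold change of -0.14 (SE 0.036, 95% interval -0.21 to -0.068). The difference did not pass the test over all genes (limma p = 0.000277, adjusted p = 0.230); the exact permutation p for Pgr alone, two-sided, was 0.000311, the smallest that 7 against 8 mice allow. Groups failed to overlap for 13 genes of 19928 in that comparison (0.0652%), where 0.0251% were called. For diet in knockout the log2 fold change was 0.029 (SE 0.033, 95% interval -0.038 to 0.097, limma adjusted p = 0.904). On high-fat diet, Pgr was higher in knockouts (1094 ± 26.2 against 1022 ± 42.9), and 6 of 9 knockouts exceeded every wild type. That contrast was 0.0996 on the log2 scale (SE 0.033, limma adjusted p = 0.948; exact permutation p = 0.00115). On control diet it was -0.070 (SE 0.036, limma adjusted p = 1.00). The interaction, the diet change in knockouts less that in wild types, was 0.17 (SE 0.049, limma adjusted p = 0.999). The 2 contrasts and the interaction share the WT_HFD mice, so they are not separate evidence.

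Age and diet were nearly aligned in wild type, where 6 of 7 WT_CD mice were 149 days old and 7 of 8 WT_HFD mice 150 days, so the diet contrast could not be made within an age. With age as a covariate the Pgr diet contrast in wild type was -0.17 (SE 0.042, limma adjusted p = 0.333), and within mice of 150 days the genotype contrast on high-fat diet was 0.087 (SE 0.033, limma adjusted p = 0.998). The summed level of 7 meningeal markers, all with reads, ran from 1249.9 to 3091 in WT_CD and from 1108 to 5568 in WT_HFD. The mean log2 value of those markers, not their sum, was set against Pgr with group means removed. It had r = 0.254 over 32 mice (permutation p = 0.175, rho = 0.236, adjusted p = 0.628 over 70 relations). Pituitary markers, 9 listed and 7 tested, summed over the 9 to 114 to 341 in WT_CD and 132 to 537 in WT_HFD. Lhb was at 0, and the hormone genes Gh, Prl, Cga, Fshb and Tshb were read in at least some libraries. The mean log2 value of the 7 tested had r = -0.164 with Pgr, with group means removed (permutation p = 0.475).

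**Figure D2:**
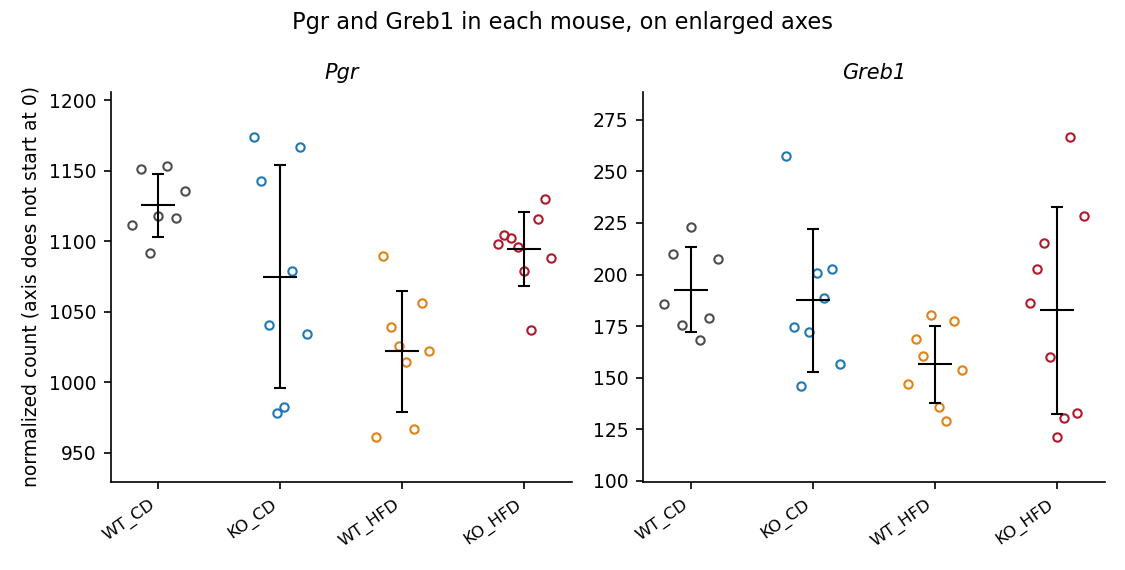
Pgr (left) and Greb1 (right) in each mouse, as normalized counts on enlarged axes that do not start at 0; circles are mice, and bars are the mean and SD of 7 to 9 mice. For Pgr the WT_HFD mice, at 961 to 1089.7, lie below all WT_CD mice, at 1091 to 1153, and for Greb1 the WT_HFD mice lie within 129 to 181 while KO_HFD mice spread from 121 to 267.

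Greb1 (ENSMUSG00000036523, chromosome 12, 16670615 to 16800886, minus strand) codes for a chromatin-bound coregulator of oestrogen receptor signalling, known chiefly from human breast cancer cells. It was read at 168 to 223 normalized counts in WT_CD (median 186) and 129 to 181 in WT_HFD (median 157). In knockouts it was read at 146 to 257 on control diet (median 182) and 121 to 267 on high-fat diet (median 186). All 8 WT_HFD mice lay below the WT_CD median and 5 lay below every WT_CD mouse, while KO_HFD covered the whole range. Diet in wild type gave a log2 fold change of -0.30 (SE 0.13, 95% interval -0.57 to -0.027, limma adjusted p = 0.629; exact permutation p = 0.00466), from 193 ± 20.6 to 157 ± 18.7. The SE rests on the spread of all 4 groups, and with only the groups compared it was 0.084 (limma adjusted p = 0.485). Diet in knockout gave -0.065 (SE 0.13), and genotype gave 0.18 (SE 0.13) on high-fat diet and -0.053 (SE 0.13) on control diet. Greb1 shared 736 of its 9580 exon bases (7.68%) with the antisense gene Gm48140, which held 190 reads in all libraries together.

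Pgr and Greb1 are the members with the lowest p-values for diet in wild type, so the 250 bases before their starts are shown from RefSeq (GRCm38.p6), at chr9:8899583-8899832 on the plus strand and chr12:16800887-16801136 on the minus strand. Capitals mark AGGTCA on either strand, a motif that many but not all nuclear receptors bind:
Pgr: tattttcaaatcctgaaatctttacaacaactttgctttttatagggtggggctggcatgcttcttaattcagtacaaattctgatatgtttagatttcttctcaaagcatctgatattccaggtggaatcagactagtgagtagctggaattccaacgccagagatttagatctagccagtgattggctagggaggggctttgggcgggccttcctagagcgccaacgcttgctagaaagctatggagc
Greb1: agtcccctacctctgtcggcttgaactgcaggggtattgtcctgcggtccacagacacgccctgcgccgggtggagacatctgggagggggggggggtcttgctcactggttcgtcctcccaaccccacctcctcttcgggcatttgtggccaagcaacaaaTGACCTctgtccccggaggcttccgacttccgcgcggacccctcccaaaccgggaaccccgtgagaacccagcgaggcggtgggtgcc
The 300-base windows (250 before and 50 after the start) numbered 11 for 7 members, with none for Gnrh1. AGGTCA on either strand occurred in 3 of the 11, those of Cyp19a1 at -81, Greb1 at -88 and Kiss1 at -65 and -36, and in 16.3% of 32851 windows of all genes. The Greb1 bases shown belong to 1 of 2 windows of that gene, and the other, at chr12:16757190-16757489, held no AGGTCA, nor did 2 of the 3 Cyp19a1 windows. The oestrogen response element GGTCANNNTGACC, which can hold that motif, occurred in 0 of the 11 and in 0.0700% of all windows. The letters of neither motif were in the window of Pgr, Esr2 or Kiss1r or in either window of Esr1.

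Cyp19a1 (ENSMUSG00000032274, chromosome 9, 54165937 to 54268110, minus strand), the enzyme that converts androgen to oestrogen, had few reads. It was read at 8.80 to 24.8 normalized counts in WT_CD (median 11.9), 5.37 to 20.5 in KO_CD (median 16.9), 8.86 to 19.1 in WT_HFD (median 13.7) and 4.05 to 22.6 in KO_HFD (median 10.2). The groups overlapped almost fully. The 4 contrasts of genotype and diet lay between -0.20 and 0.094 on the log2 scale (SE 0.26 to 0.28), and for diet in knockout, the largest of them, the 95% interval was -0.72 to 0.32.

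**Figure D3:**
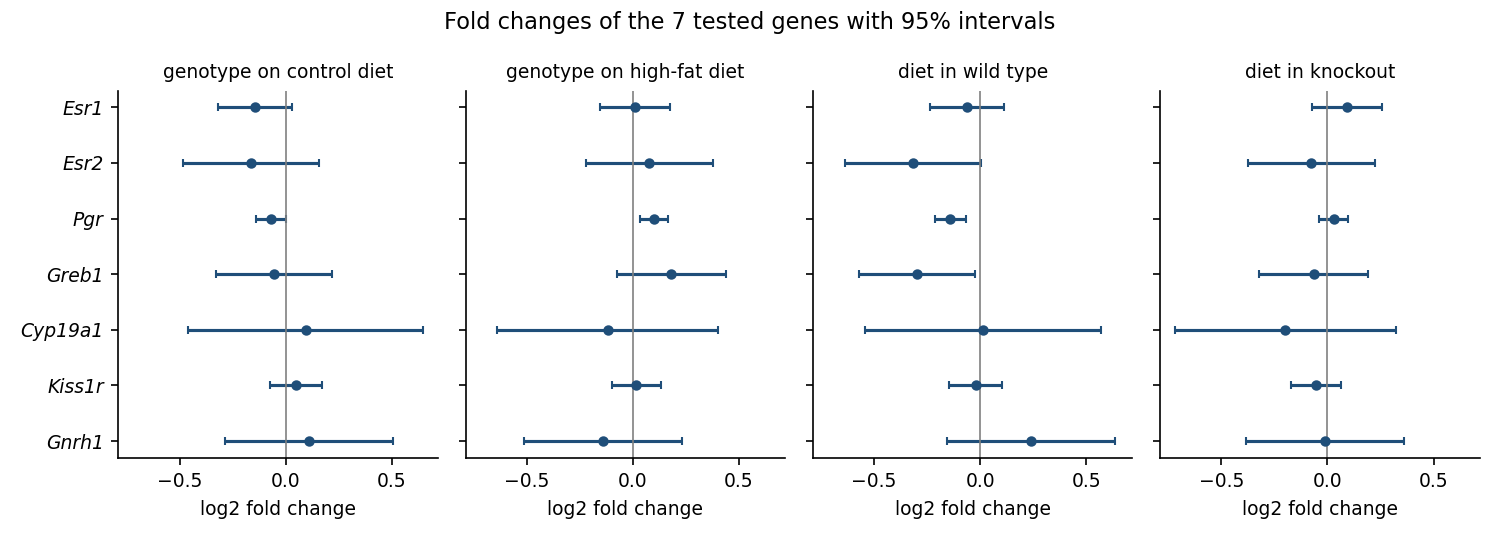
Log2 fold changes (x axes, log2 of normalized count + 1) of the 7 tested genes for genotype on each diet and diet in each genotype; points are limma estimates from 7 to 9 mice a group and bars their 95% intervals. The intervals of Pgr are the narrowest and exclude 0 for diet in wild type (-0.21 to -0.068) and genotype on high-fat diet (0.032 to 0.17), neither of which passed the test over all genes.

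Kiss1 (ENSMUSG00000116158, chromosome 1, 133321875 to 133329901, plus strand), the ligand, had 0 reads in each of the 32 libraries. As a count, 0 of 900.3 M reads would allow at most 0.00333 CPM (reads per M reads on genes), a limit for counting error only that holds for reads which could be assigned to Kiss1. All 779 of its exon bases also belonged to exons of a read-through gene on the same strand, Gm28040 (ENSMUSG00000098306), which had 0 reads too and 0 bases of its own. The same held across the table: all 140 protein-coding genes with no exon base of their own on their strand were listed at 0 in every library (100%). Of 21476 protein-coding genes with at least as many own as shared exon bases, 1966 were (9.15%). The 0 of Kiss1 was therefore not read as absence of its RNA, and no comparison between groups could be made. The sources used here do not give the counting rule.

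The other read-through gene of that name (ENSMUSG00000115958) shared 498 bases with Kiss1 (63.9% of Kiss1), including the stretch that codes for the peptide, and had 158 bases of its own. It held 100 reads in all, from 0 to 13 per library, in 28 of 32 libraries. By group these were 24 reads in WT_CD, 36 in KO_CD, 13 in WT_HFD and 27 in KO_HFD, with normalized counts of 3.42 ± 2.07, 4.52 ± 4.43, 1.54 ± 1.41 and 3.03 ± 2.46 (SD). The gene was below the filter and had no test, and it was looked at after its values were seen. Its own bases lie outside the annotated exons of Kiss1. Which of its bases the reads covered is not known, so Kiss1 and a read-through transcript cannot be told apart as their source. Golt1a, the upstream gene, shared 102 bases with Kiss1 and held 27 reads. Tac2 and Pdyn, the partner peptides of arcuate kisspeptin neurons, named after their values were seen, had 16.7 ± 1.63 and 23.3 ± 1.88 RPKM, with reads in every library.

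**Figure D4:**
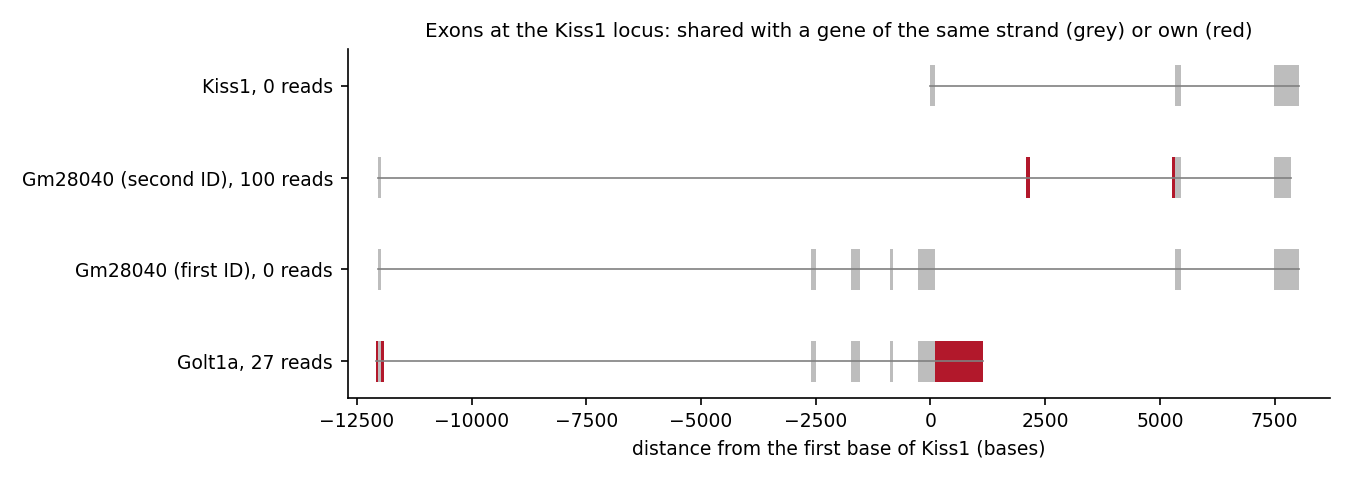
Merged exons of Kiss1 and the genes that overlap it on the same strand, as distance in bases from the first base of Kiss1 (x axis, to scale); grey marks bases shared with another gene and red a gene's own bases. The lower and upper Gm28040 rows are ENSMUSG00000098306 and ENSMUSG00000115958; the 2 genes with no red have 0 reads, and those with red have 100 and 27.

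Kiss1r (ENSMUSG00000035773, chromosome 10, 79916971 to 79922273, plus strand), the kisspeptin receptor, was the steadiest member next to Pgr. It was read at 229 to 288 normalized counts in WT_CD (median 242), 239.8 to 289 in KO_CD (median 256), 209 to 273 in WT_HFD (median 249.9) and 217 to 269.9 in KO_HFD (median 253). All groups overlapped. The 4 contrasts lay between -0.055 and 0.049 (SE 0.058 to 0.062), and their 95% intervals together ran from -0.17 to 0.17. Kiss1r shared 247 of its 3856 exon bases (6.41%) with R3hdm4 on the opposite strand, a gene with 64606 reads in all. The sources used here do not give the strand setting of the counting. Opposite-strand overlap was counted over genes whose exon bases were all their own on their strand. Of 439 such genes whose exon bases all lay under exons of the opposite strand, 170 held reads (38.7%). Of 43423 such genes with no exon base under those exons, 31241 did (71.9%). Among protein-coding genes these shares were 45.5% and 88.0%.

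Gnrh1 (ENSMUSG00000015812, chromosome 14, 67745181 to 67749439, plus strand), the hormone at the head of the axis, was detected in every mouse. Normalized counts were 24.4 to 47.5 in WT_CD (median 38.7), 18.7 to 56.5 in KO_CD (median 41.2), 32.1 to 65.5 in WT_HFD (median 41.2) and 24.3 to 61.2 in KO_HFD (median 40.5). All groups overlapped, and mice of each group differed by more than the groups did. Diet in wild type gave a log2 fold change of 0.24 (SE 0.20, 95% interval -0.16 to 0.64, limma adjusted p = 0.817), from 37.5 ± 7.87 to 44.9 ± 12.1. Diet in knockout gave -0.013 (SE 0.18), and genotype gave 0.11 (SE 0.20) on control diet and -0.14 (SE 0.18) on high-fat diet.

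Mice of the same group differed to very different extents from gene to gene. The coefficient of variation of normalized counts within groups was 4.48% for Pgr, 7.38% for Kiss1r, 12.6% for Esr1, 19.2% for Greb1, 20.4% for Esr2, 27.7% for Gnrh1 and 37.1% for Cyp19a1. Counting alone gave 3.05% for Pgr, 6.31% for Kiss1r, 5.04% for Esr1, 7.60% for Greb1, 17.2% for Esr2, 16.2% for Gnrh1 and 29.1% for Cyp19a1. The part beyond counting, from the difference of squares, was smaller than the counting part for Kiss1r (3.84%), Esr2 (11.0%) and Cyp19a1 (22.9%). It was larger for Pgr (3.28%), Esr1 (11.5%), Greb1 (17.7%) and Gnrh1 (22.5%). Among the 1060 to 1804 genes closest to each in mean level, the spread of Esr1 exceeded that of 92.8% of genes, that of Greb1 92.0% and that of Gnrh1 89.2%. Kiss1r exceeded only 9.79%, Esr2 25.9%, Pgr 27.7% and Cyp19a1 59.7%. By group, Pgr varied by 1.99% in WT_CD, 7.36% in KO_CD, 4.20% in WT_HFD and 2.40% in KO_HFD, and Greb1 by 10.7%, 18.4%, 11.9% and 27.4% in the same order. These differences in spread were not tested.

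**Figure D5:**
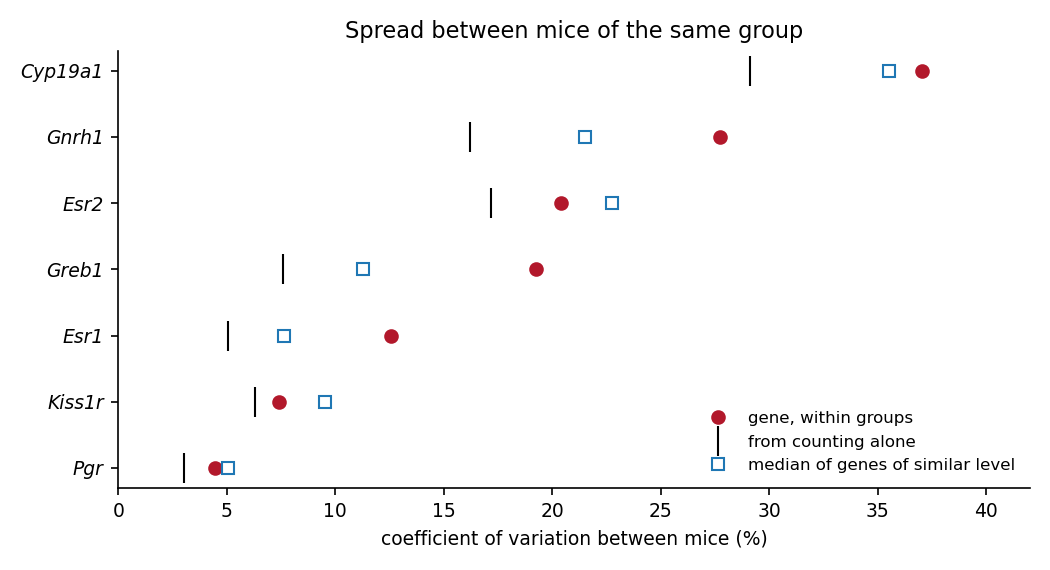
Coefficient of variation (percent, x axis) of normalized counts between mice of the same group for the 7 genes with reads; red circles are the genes, black bars the value counting alone would give, and blue squares the median of genes of similar mean level. Esr1, Greb1 and Gnrh1 lie well to the right of both marks, and Pgr, Kiss1r and Esr2 to the left of the squares.

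Whether the members varied together was examined over the 32 mice with group means removed, for 21 pairs, by permutation within groups, two-sided. No pair passed the Benjamini-Hochberg threshold of 0.05 (smallest adjusted permutation p = 0.173 for r and 0.0895 for rho). Of the 4 pairs with the lowest p, Pgr and Greb1 had r = 0.401 (permutation p = 0.0141) and rho = 0.482 (permutation p = 0.00533), the same sign in 4 of 4 groups, and r = 0.486 without the 2 mice farthest from the median of Pgr. Cyp19a1 and Greb1 had r = 0.481 (permutation p = 0.0201), and r = 0.473 without 2 mice. By group that r was 0.412 in WT_CD, 0.146 in KO_CD, 0.0679 in WT_HFD and 0.749 in KO_HFD. Esr2 and Gnrh1 had r = 0.421 (permutation p = 0.0264) and rho = 0.487 (permutation p = 0.00852), the same sign in 4 of 4 groups, and r = 0.419 without 2 mice. Esr1 and Kiss1r ran in opposite directions, with r = -0.393 (permutation p = 0.0329), but r was 0.175 in KO_CD and -0.137 within the 13 mice of 149 days.

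Against 10 lists of regional and cell type markers, 70 relations were computed and the smallest adjusted p was 0.146. The lowest p were those of Esr1, which had r = 0.519 with 7 markers of the ventromedial nucleus (permutation p = 0.00417) and r = -0.506 with 7 markers of the thalamus (permutation p = 0.00385). Greb1 had r = 0.437 with 9 preoptic and septal markers (permutation p = 0.0261) and r = 0.404 with 7 choroid plexus markers (permutation p = 0.0213). Of those 7, Ttr, Folr1, Kcne2 and Aqp1 were weakly read, at median normalized counts of 25.1, 17.4, 9.48 and 9.60. Clic6, Kl and Otx2 had 659, 268 and 65.4. The preoptic and septal relation was -0.0126 within WT_HFD and kept its sign in the 3 other groups. Esr1 had r = -0.400 with 8 neuron markers (permutation p = 0.0204), but -0.250 without 2 mice and 0.375 within KO_CD. Greb1 had r = -0.324 with the neuron markers (permutation p = 0.0432), and -0.521 without 2 mice. By group that r was 0.550 in WT_CD, -0.720 in KO_CD, -0.181 in WT_HFD and -0.827 in KO_HFD, and it was 0.111 within the 13 mice of 149 days. Gnrh1 had r = 0.410 with the 10 markers of hypothalamic nuclei (permutation p = 0.0237), and 0.412 without 2 mice.

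The genes whose values followed each member most closely across mice were listed as a description, by Pearson r of group-centred log2 values over 32 libraries among 15205 named genes, without a p-value. For Esr1 these were Peg10 (r = 0.804), Arhgap36 (0.750), Amigo2 (0.745), Sgsm1 (0.744) and Hpcal4 (0.743). For Pgr they were Dync2h1 (0.713), Mccc1 (0.677), Birc6 (0.659), Jmjd1c (0.658) and Rsf1 (0.658), and for Greb1 Dnah10 (0.701), Wdr66 (0.669), Crocc2 (0.652), Saxo2 (0.647) and Dnah6 (0.629). The closest gene was Pcsk2os1 for Esr2 (0.679), Erlin2 for Cyp19a1 (0.735), Eml6 for Kiss1r (0.626) and Zfp780b for Gnrh1 (0.707). Among the genes named, the lowest r within a single group was 0.317 for Esr1 (Arhgap36), 0.151 for Pgr (Birc6) and -0.104 for Greb1 (Wdr66). All libraries share the same dissection and depth range.

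Other genes of the axis were taken from 4 lists, and none of their members was called in any of the 7 comparisons. The lists held regulators of kisspeptin and GnRH neurons (17 of 19 tested), steroid receptors and coregulators (15 of 15), genes of sex steroid synthesis and conversion (11 of 19) and oestrogen-regulated genes (16 of 16). Median log2 fold changes of the lists lay between -0.052 and 0.046 over all comparisons. For oestrogen-regulated genes, 12 of 16 lay below 0 for diet in wild type, where 50.1% of all genes did. For diet in knockout 10 of 16 did, against 50.6% of all genes. For genotype, 11 of 16 lay below 0 on control diet and 6 of 16 on high-fat diet, against 50.2% and 51.5% of all genes. These counts were not tested. Not tested for low counts were Gnrhr, Fgf8, Cyp17a1, Hsd3b1, Hsd3b6, Hsd17b3, Srd5a2, Akr1c18 and Sult1e1, at 6 to 70 reads each in all libraries together.

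The list members with the lowest p were the following. Nos1, the neuronal nitric oxide synthase, averaged 3429 ± 135 normalized counts in WT_CD, 3406 ± 179 in KO_CD, 3162 ± 225 in WT_HFD and 3242 ± 93.2 in KO_HFD. For diet averaged over genotypes this was -0.094 on the log2 scale (SE 0.024, limma adjusted p = 0.0696). In the same comparison Sema3a, an axon guidance factor of GnRH neurons, had 0.17 (SE 0.054, limma adjusted p = 0.164). Dlk1, an imprinted gene tied to the timing of puberty in humans, had -0.068 (SE 0.022, adjusted p = 0.184 by limma), and Tspo, the mitochondrial translocator protein, 0.25 (SE 0.082, adjusted p = 0.196 by limma). Gper1, the membrane oestrogen receptor, averaged 80.6 ± 23.2 in WT_CD and 65.7 ± 10.2 in KO_CD, and 74.7 ± 9.98 in WT_HFD and 61.6 ± 9.06 in KO_HFD. For genotype averaged over diets it had -0.27 (SE 0.093, adjusted p = 0.816 by limma).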

How the data were processed

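Per the submitters' processing notes, reads were handled with STAR 2.7.6a on GRCm38, with Trim Galore 0.6.2 (cutadapt 2.10) and FastQC, and DESeq2 1.28.1 in R 4.0.2 is also named. The sources used here do not name what counted the reads, with which strand option or annotation. Deposited values are log2 of normalized counts that the authors made, 1 per gene and library. From the values, each is the log2 of whole reads over the size factor of its library, and 0 reads are listed as log2 of 0.1; whole reads came back for 100% of the values within 1e-06. The test was limma 3.58.1 (R 4.3.3, statmod 1.5.0), as planned. A count test was planned only for the case of deposited raw counts, and the deposited unit is log2.

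The model used log2(normalized count + 1), genes with a normalized count of at least 10 in at least 7 libraries (19928 genes), all 4 groups in 1 fit, an intensity trend and robust variances, and Benjamini-Hochberg adjustment over all genes at 0.05, two-sided. The pseudocount shrinks the fold changes of weakly read genes. The test was tested on simulated data, but the outcome is not given here, so its power for small changes is not shown. Exact permutation tests of single genes and 100000 permutations per relation used Python 3.11.15 and scipy 1.17.1. Exon bases and overlaps are from GENCODE vM21. Named genes were all members and, per list and comparison, the lowest p in each direction, of which those with the lowest p overall are printed; others are stated as named after their values were seen. The members and gene lists were chosen with earlier results of these data known. Alternatives tried were the pseudocount, the filter, the scaling, limma-voom with and without quality weights, moderation, the mice fitted, age, a replicate block and leaving out each library. Depth was 25.3 to 34.2 M reads (median 27.7 M).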

Additional observations from a re-analysis of the deposited data

Results flagged for a closer look

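Of 28 sets of a member in a group, 1 held a mouse far from the others, where chance gives about 1 in 20. WT_CD replicate 4 had a normalized count of 24.8 for Cyp19a1, from 25 reads, and the other 6 WT_CD mice had 8.80 to 15.5.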

How the results depend on the processing

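No member was called in any comparison under any alternative or without any library; with a filter of 50 only 5 members could be tested. Of 379 combinations of a member's value and an alternative other than leaving out a library, 376 kept direction and side. The other 3 changed sign near 0: Esr1 for genotype on high-fat diet with the replicate block (-0.014), Kiss1r for diet in wild type with age as a covariate (0.023) and Gnrh1 for diet in knockout with quality weights (0.027); the cause was not tested. Part of the 379 could not have changed direction. The exact permutation tests reuse the main difference and have no adjusted p. The filters, the moderation and fitting only the groups compared leave a difference of group means as it was. For those settings the kept direction is no check. A library outside the groups compared also cannot change the difference of their means when it is left out. Such cases are part of the 992 combinations of a value and a left-out library, and their kept direction is no check either. Leaving out single libraries moved 7 values across 0 in 28 of these 992 combinations. These ranges were -0.072 to 0.16 for Cyp19a1 and -0.043 to 0.013 for Kiss1r, both for diet in wild type, and -0.16 to 0.071 for Gnrh1 and -0.14 to 0.0025 for Greb1, both for diet in knockout. For genotype on high-fat diet they were -0.23 to 0.052 for Cyp19a1, -0.044 to 0.043 for Esr1 and -0.018 to 0.041 for Kiss1r. The change of Pgr for diet in wild type stayed within -0.17 to -0.13 (limma adjusted p 0.177 to 0.485 over all alternatives).

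Replicate numbers were not taken as pairs, since the labels do not name pairs. Not every same-numbered pair had r over 0.1 (8 of 45 did, and 40 of 338 other pairs). The sample descriptions do hold a running number that passes through the 4 groups in turn, so replicates of like number lie close in that order. What the order stands for is not stated, and a block of that order was not tested. Same-numbered mice had a mean r of 0.020 (-0.20 to 0.32). Of 32 libraries, 11 correlated best with their own number, a hint from the data, and no stated design names pairs. With the replicate block Pgr for diet in wild type was -0.14 (limma adjusted p = 0.285), and 0 members were called. Over all genes the block called 45 genes for diet averaged over genotypes where 67 were called without it, and 3 against 5 for diet in wild type. Age as a covariate left 12 and 1 for these, and limma-voom 69 and 5; for diet in knockout, 7 genes became 3 with limma-voom and 2 within 150 days. Single libraries moved these counts too. The 67 became 41 without WT_CD replicate 2 or 6, 43 without KO_CD replicate 5 and 44 without WT_CD replicate 1. The 5 became 1 without WT_CD replicate 2 and 3 without WT_CD replicate 1. The 7 became 3 without KO_CD replicate 6 or KO_HFD replicate 8, and 4 without KO_CD replicate 3 or KO_HFD replicate 7.

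The median coefficient of variation of the members was 19.2%, against 11.7% in WT_CD, 11.9% in WT_HFD, 18.4% in KO_CD and 23.2% in KO_HFD alone. Counting made up more of the spread than the rest for Kiss1r, Esr2 and Cyp19a1.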
